A study of Mus musculus with 8 samples.

Results

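The genes described here are 10 genes of the vessel wall, chosen by name as markers of vascular smooth muscle cells and pericytes, cells on which neuropeptide Y acts: Myh11, Cnn1, Des, Myl9, Mylk, Rgs5, Notch3, Lmod1, Smtn and Cspg4. Each name matched 1 of the 56748 genes in the file, and all 10 were among the 18495 genes tested. Poly-A selected RNA was sequenced from whole skin of 8 male mice aged 35 weeks, with 1 library per mouse and no treatment. The NPY-tet group held 3 mice of strain B6;129S4-Npytm2Rpa/J that were NPY tet/tet, homozygous for a tetracycline-controlled allele at the Npy locus, and the wild-type group held 5 NPY +/+ siblings. The labels do not name the cells in which the allele is active, and the skin was not separated into layers.

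Smooth muscle cells of arteries and veins, and pericytes of capillaries, are together called mural cells. A rise in calcium lets calmodulin activate myosin light chain kinase (Mylk), which phosphorylates the regulatory light chain (Myl9) so that smooth muscle myosin (Myh11) pulls on actin. Neuropeptide Y is released from sympathetic nerves along vessels together with noradrenaline, constricts many arteries and strengthens the response to other constrictors, largely through the Y1 receptor. Skin holds other smooth muscle as well, in the arrector muscles of hair follicles, and mouse skin carries a sheet of skeletal muscle, the panniculus carnosus. In bulk tissue fewer cells of a type and less RNA per cell cannot be told apart.

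Library totals were 31370433 to 47495565 counts. Npy itself stood at 0.159 to 0.502 CPM (counts scaled to library size, with TMM factors) in the wild-type and at 299.7 to 322 CPM in the NPY-tet mice, as the labels have it. The libraries differed in ribosomal RNA, at 6.44% to 8.07% of counts for 5 of them (NPY-tet replicate 1 and all wild-type replicates but the fourth) and at 0.0388% to 0.0754% for the other 3. They are called the rRNA-rich and rRNA-poor libraries, and no label marks this split. A comparison within the first rests on 1 NPY-tet mouse and within the second on 1 wild-type mouse. Smooth muscle expression was visible in Acta2, smooth muscle actin. Its level was 107 ± 13.8 CPM (SD, n = 5) for the wild-type and 107 ± 18.9 CPM (SD, n = 3) for the NPY-tet mice. None of the 20 other contractile genes or 12 other pericyte genes listed was at 0 counts in the 8 libraries together. That is a low bar and does not show smooth muscle identity. Only 19 of the 20 contractile genes passed the filter for testing, and some, such as Tpm1 and Tpm2, are shared with skeletal muscle. Tagln, the smooth muscle protein transgelin and normally a strong marker, was counted at only 0.354 to 1.22 CPM. Its span overlaps Pcsk7 on the other strand, and how unstranded reads in the overlap were assigned is not given in the sources used here. Acta2 and Tagln were chosen for this check after their values were seen.

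None of the 10 genes passed an adjusted p of 0.05 by edgeR's quasi-likelihood test over all genes tested. The background was nearly as empty: 0.00541% of all genes passed, which is 1 gene, Npy. Without adjustment, 1106 genes (5.98%) had an edgeR p below 0.05, 3 of the 10 among them. DESeq2 called 68 genes (0.368%) and limma-voom 3 (0.0162%) at an adjusted p of 0.05, and 0 of the 10 in either case. Of the 10, 6 were fitted higher and 4 lower in NPY-tet skin. The median log2 fold change (NPY-tet over wild-type) was 0.04, against 0.00412 over all genes. The 10 genes did not behave alike. A trio that forms the core of the motor, Myh11, Myl9 and Mylk, lay above every wild-type mouse in every NPY-tet mouse. Lmod1 stood lower on average, with overlap, and the remaining 6 overlapped between the groups. Groups without overlap were seen for 3 of the 10 genes and for 3.78% of all genes tested. All 3 had NPY-tet above, against 1.81% of all genes, and none of the 10 had NPY-tet below, against 1.98% of all genes. The 10 genes were chosen with earlier results of these data known, so setting them against these shares is no test of the list. The 3 genes are also not separate counts. Their pairwise Pearson r over the libraries was 0.85 (Myh11 with Myl9), 0.87 (Myh11 with Mylk) and 0.61 (Myl9 with Mylk).

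**Figure D1:**
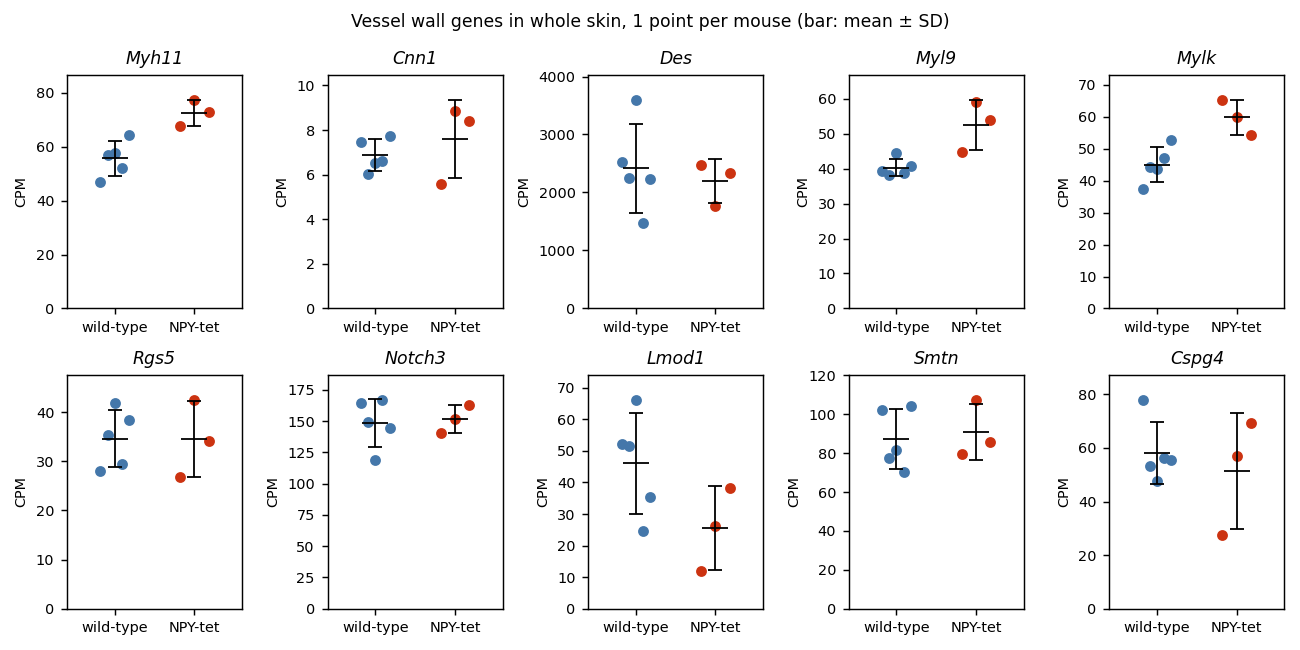
CPM (vertical axis, from 0) of each of the 10 genes in each mouse (points), with the group mean ± SD, for 5 wild-type and 3 NPY-tet mice. Myh11, Myl9 and Mylk show no overlap between the groups, while the other 7 genes overlap.

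The promoters of 3 genes are shown because their levels differed in pattern: Myl9 belongs to the trio above, Lmod1 varied with skeletal muscle markers, and Des was the most abundant. RefSeq promoter windows, from 250 bases before to 50 bases after the annotated start in build GRCm38.p6, were matched for 9 of the 10 genes. The windows were searched on both strands for the CArG box, the motif of serum response factor, which drives many smooth muscle genes, and for CAGCTG, a form of the E box bound by muscle regulatory factors. Capitals mark these motifs, which do not overlap in these windows. Each sequence is given 5′ to 3′ on the plus strand of the chromosome, which is the strand of the gene in all 3 cases: Myl9 at chr2:156775214-156775513, Lmod1 at chr1:135324563-135324862 and Des at chr1:75360042-75360341.
Myl9: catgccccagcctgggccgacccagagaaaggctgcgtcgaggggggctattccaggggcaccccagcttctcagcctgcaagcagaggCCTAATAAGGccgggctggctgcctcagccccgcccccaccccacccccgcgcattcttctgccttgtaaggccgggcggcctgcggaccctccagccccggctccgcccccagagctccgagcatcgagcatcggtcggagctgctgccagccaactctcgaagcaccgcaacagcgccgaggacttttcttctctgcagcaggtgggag
Lmod1: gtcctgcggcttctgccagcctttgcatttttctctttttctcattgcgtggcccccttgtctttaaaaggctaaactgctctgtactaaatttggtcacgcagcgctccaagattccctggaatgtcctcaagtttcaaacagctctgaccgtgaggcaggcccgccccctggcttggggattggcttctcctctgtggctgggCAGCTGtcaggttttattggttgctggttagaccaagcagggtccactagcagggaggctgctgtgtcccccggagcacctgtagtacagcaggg
Des: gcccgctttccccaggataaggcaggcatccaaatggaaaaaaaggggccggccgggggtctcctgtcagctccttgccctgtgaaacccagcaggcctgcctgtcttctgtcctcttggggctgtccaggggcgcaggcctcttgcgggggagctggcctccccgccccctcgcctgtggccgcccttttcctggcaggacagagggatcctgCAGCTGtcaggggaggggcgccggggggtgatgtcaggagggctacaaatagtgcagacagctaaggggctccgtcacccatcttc

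The Myl9 window held the only CArG box among the 9 windows, at bases 90 to 99 of the 300. Such a box was found in 1.63% of the 32851 promoter windows of the table. CAGCTG occurred in the windows of Lmod1 (bases 206 to 211), Des (bases 215 to 220) and Rgs5 (bases 277 to 282), against 16.3% of all windows. The motif TGGGAA, the core bound by the Notch partner RBPJ, was found in the window of Smtn, and in 25.6% of all windows. TATAAA, a form of the TATA box, was in none of the 9 and in 13.6% of all windows. A match describes the letters only, and a window without one says nothing of the factor.

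The motor genes came first in the comparison. Myh11, the heavy chain of smooth muscle myosin (ENSMUSG00000018830, chromosome 16, 14012399 to 14109236, minus strand, coordinates as in the file, whose notes name build mm39), was measured at 47.1, 56.9, 57.8, 52.1 and 64.4 CPM in wild-type replicates 1 to 5. In NPY-tet replicates 1 to 3 it was measured at 67.6, 77.3 and 72.9 CPM. The lowest NPY-tet mouse thus lay just above the highest wild-type mouse. The means were 55.7 ± 6.51 and 72.6 ± 4.90 CPM, a 1.30-fold difference. The log2 fold change of 0.38 (SE 0.13, 95% interval 0.11 to 0.66) had an unadjusted p of 0.0105 and an adjusted p of 0.711 by edgeR.

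Myl9, the regulatory light chain of smooth muscle myosin (ENSMUSG00000067818, chromosome 2, 156617340 to 156623578, plus strand), stood at 39.4, 38.2, 44.4, 38.6 and 40.9 CPM in the wild-type mice. The NPY-tet mice had 44.6, 58.9 and 53.9 CPM. NPY-tet replicate 1 was barely above wild-type replicate 3, and the other NPY-tet mice were clear of the range. The log2 fold change was 0.38 (SE 0.12, 95% interval 0.11 to 0.65; adjusted p = 0.708 by edgeR).

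Mylk, the calcium- and calmodulin-dependent kinase that phosphorylates this light chain (ENSMUSG00000022836, chromosome 16, 34565580 to 34822790, plus strand), was at 37.4, 44.2, 43.7, 47.2 and 52.7 CPM in wild-type skin. It was at 65.3, 60.1 and 54.4 CPM in NPY-tet skin. Here NPY-tet replicate 1 was the highest library, whereas for Myl9 it was the lowest of its group. The log2 fold change of 0.41 (SE 0.13, 95% interval 0.12 to 0.70) had the smallest unadjusted p of the 10 genes, 0.00922, and an adjusted p of 0.708 by edgeR. With unadjusted p below 0.05 by edgeR, 3 of the 10 genes were higher, these 3, and none lower, against 2.43% of all genes higher and 3.55% lower. Among 19 other smooth muscle contractile genes tested, 0 were higher and 1 lower at this level. Of 10 white adipocyte markers 0 were higher and 3 lower. These counts are no test of a list, since the members and lists were chosen with earlier results of these data known.

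The difference in the trio pointed the same way in both kinds of library. The trio was picked for groups without overlap in these same libraries. Parts and refits of them are therefore no independent support. Within the rRNA-rich libraries the log2 fold changes were 0.28 for Myh11, 0.15 for Myl9 and 0.57 for Mylk. Within the rRNA-poor libraries they were 0.52, 0.53 and 0.26. All 3 genes were higher in each of the 24 alternative settings, with adjusted p-values from 0.226 to 1.00. Within a library the levels of the trio were also set against each other. The 3 genes had been picked for a shift in the same direction. Small group differences in these ratios are therefore no independent support either. The log2 ratio of Myl9 to Myh11 averaged -0.46 ± 0.16 over the wild-type and -0.48 ± 0.11 over the NPY-tet mice (adjusted p = 0.857, two-sided exact permutation test over 56 splits). For Mylk to Myh11 the ratio was -0.31 ± 0.10 and -0.28 ± 0.20 (adjusted p = 0.857, exact permutation).

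**Figure D2:**
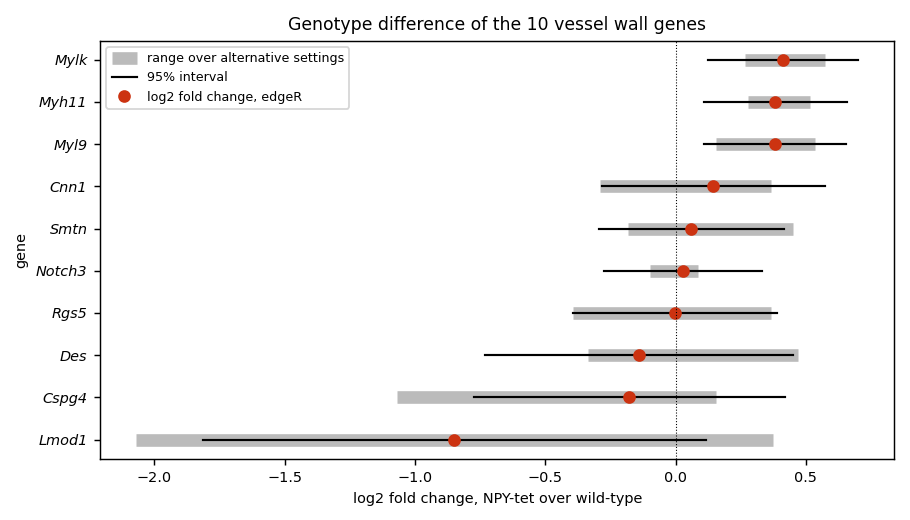
Log2 fold change of NPY-tet over wild-type (horizontal axis) for the 10 genes (vertical axis), with the edgeR estimate (points), its 95% interval (thin lines) and the range over 24 alternative settings (grey bars). Only for Myh11, Myl9 and Mylk do both the interval, before adjustment for multiple testing, and the range stay above 0. The settings reuse the same libraries, in which these genes had no overlap between the groups. The widest range is that of Lmod1, from -2.07 to 0.37.

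Regulators of the thin filament and the cytoskeleton were next. Cnn1, calponin, an actin-binding protein that slows smooth muscle myosin, had 7.48, 6.03, 6.54, 6.62 and 7.72 CPM in wild-type and 5.59, 8.83 and 8.39 CPM in NPY-tet mice. The NPY-tet group held both the lowest and the highest library. Its log2 fold change was 0.15 (SE 0.20, 95% interval -0.28 to 0.57; adjusted p = 0.890 by edgeR). Smtn, smoothelin, is a marker of contractile smooth muscle and is also made by skeletal muscle. It had 102, 77.4, 81.7, 70.1 and 104 CPM in wild-type and 79.5, 107 and 85.8 CPM in NPY-tet mice. The groups covered nearly the same range, and the log2 fold change was 0.06 (SE 0.16, 95% interval -0.29 to 0.41; adjusted p = 0.948 by edgeR).

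Lmod1, leiomodin, which nucleates actin filaments and is best known from smooth muscle, varied most. It was measured at 52.2, 51.7, 66.1, 24.8 and 35.3 CPM in the wild-type and at 12.1, 26.2 and 38.4 CPM in the NPY-tet mice. NPY-tet replicate 1 was the lowest library and wild-type replicate 3 the highest, while wild-type replicates 4 and 5 lay within the NPY-tet range. The log2 fold change was -0.85 (SE 0.42, 95% interval -1.81 to 0.12), with an adjusted p of 0.796 by edgeR. It was -2.07 within the rRNA-rich libraries, where Lmod1 passed (adjusted p = 0.0147 by edgeR; 1.66% of genes passed there), a value that rests on NPY-tet replicate 1 alone. Within the rRNA-poor libraries it was 0.37, in the opposite direction, and 0 of the 10 genes passed there, against 1.17% of all genes. Without NPY-tet replicate 1 it was -0.50.

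Lmod1 varied with the skeletal muscle markers of the samples. The skeletal muscle score, the mean log2 CPM of 14 tested markers such as the actin Acta1 and the light chain Mylpf, was 11.4, 11.4, 12.0, 10.6 and 11.3 in the wild-type and 10.2, 11.1 and 11.3 in the NPY-tet mice. Over the 8 libraries Lmod1 correlated with it at a Pearson r of 0.95 (adjusted p = 0.000992, exact permutation over 20 relations) and a Spearman rho of 0.98 (adjusted p = 0.00794, exact permutation). Without NPY-tet replicate 1 and wild-type replicate 3, the libraries farthest from the median score, r was 0.83. Both kinds of library hold fewer than 6 samples, so no r was computed within them. With the skeletal muscle score as a covariate the log2 fold change of Lmod1 was -0.34 (adjusted p = 0.9997 by edgeR). The part of skeletal muscle content in the Lmod1 value was not tested by this covariate or by the correlation. Of the 14 skeletal muscle markers tested 13 were fitted lower and 1 higher in NPY-tet skin, with 0 past the threshold and a median log2 fold change of -0.38. The median was -0.19 without wild-type replicate 3. In the rRNA-rich libraries 2 of 15 markers passed, with a median of -0.89, and in the rRNA-poor libraries 1 of 15, with a median of 0.39. Their summed level was 42589.6 to 102873 CPM in the wild-type and 43818 to 64163 CPM in the NPY-tet mice. One further marker, Tnnc2, had at most 14 counts in any library, and its span overlaps Ube2c on the other strand.

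Des, desmin, the intermediate filament protein of all muscle types, was by far the most abundant of the 10 genes. It stood at 2529.9, 2249.8, 3602, 1467 and 2240.2 CPM in the wild-type and at 2479.5, 1763 and 2333 CPM in the NPY-tet mice. All NPY-tet mice fell inside the wild-type range. The log2 fold change was -0.14 (SE 0.27, 95% interval -0.73 to 0.45; adjusted p = 0.926 by edgeR), -0.08 for rRNA-rich and 0.47 for rRNA-poor libraries. Its Pearson r with the skeletal muscle score was 0.56 (adjusted p = 0.558, exact permutation) and its Spearman rho 0.55 (adjusted p = 0.949, exact permutation). Without NPY-tet replicate 1 and wild-type replicate 3 the Pearson r was 0.93. NPY-tet replicate 1 stood apart from the other mice here, with the lowest skeletal muscle score and the third highest Des level. Its level of Lmod2, the leiomodin of striated muscle, was the highest of all libraries at 201 CPM, against 35.2 to 125 CPM in the others. Of the other 8 genes none correlated with the skeletal muscle score after adjustment, nor did any of the 10 with the blood endothelium score (adjusted p 0.515 to 0.973 by Pearson and 0.368 to 0.977 by Spearman, exact permutation), which does not show that they are unrelated in 8 libraries.

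**Figure D3:**
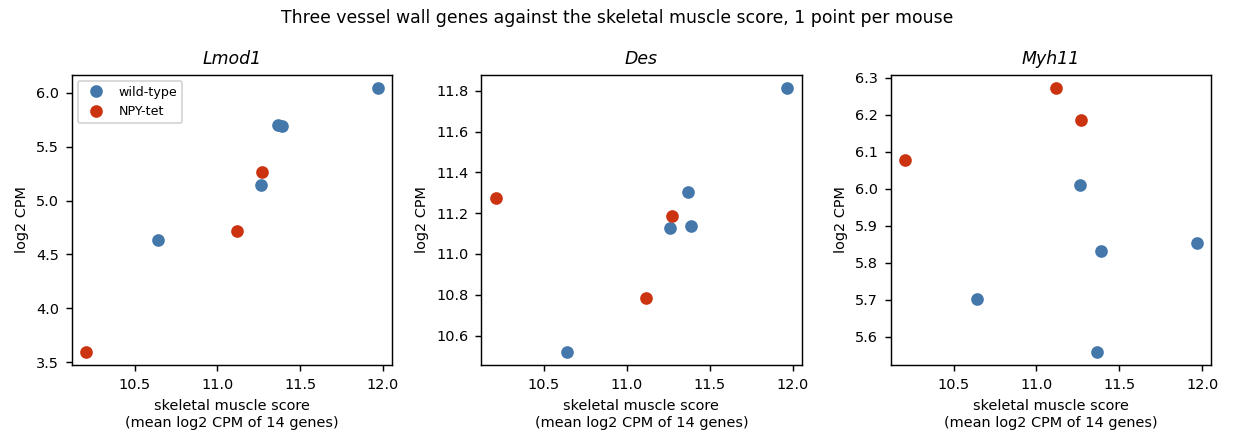
Log2 CPM of Lmod1, Des and Myh11 (vertical axes) against the skeletal muscle score (horizontal axis, mean log2 CPM of 14 marker genes), 1 point per mouse for 5 wild-type and 3 NPY-tet mice. Lmod1 rises with the score over all 8 mice (r = 0.95), Des does so apart from NPY-tet replicate 1, and for Myh11 r is -0.18, with all NPY-tet mice above the wild-type mice.

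The pericyte and mural cell markers showed no difference that held up. Rgs5, a regulator that shortens G protein signals and a widely used pericyte marker (ENSMUSG00000026678, chromosome 1, 169483070 to 169523382, plus strand), had 28.0, 35.3, 41.8, 29.5 and 38.4 CPM in the wild-type mice. The NPY-tet mice had 26.9, 42.5 and 34.2 CPM, which again spans the whole range. Its log2 fold change was -0.0027 (SE 0.18, 95% interval -0.39 to 0.39; adjusted p = 0.999 by edgeR), -0.39 for rRNA-rich and 0.37 for rRNA-poor libraries. Notch3, the Notch receptor of mural cells, had 164, 149, 119, 167 and 145 CPM in the wild-type and 141, 152 and 163 CPM in the NPY-tet mice. Its log2 fold change of 0.03 (SE 0.14, 95% interval -0.27 to 0.33; adjusted p = 0.973 by edgeR) was small in every setting, from -0.10 to 0.09.

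Cspg4, the proteoglycan NG2 of pericyte surfaces, had 77.9, 53.4, 47.5, 56.4 and 55.4 CPM in the wild-type and 27.5, 57.2 and 69.4 CPM in the NPY-tet mice. Only NPY-tet replicate 1 lay outside the wild-type range. The log2 fold change was -0.18 (SE 0.27, 95% interval -0.78 to 0.42; adjusted p = 0.904 by edgeR), -1.07 for rRNA-rich libraries (adjusted p = 0.103 by edgeR) and 0.16 for rRNA-poor libraries. It was -0.51 with the ribosomal RNA set as a factor and 0.13 without NPY-tet replicate 1. Fibroblast markers were also lowest in that mouse, with a summed level of 2899 CPM over 10 genes, against 10980.1 to 24632 CPM in the wild-type mice and 18453 and 25960.1 CPM in the other NPY-tet mice. Of these 10 markers 3 were fitted higher and 7 lower, none was at 0 counts in the 8 libraries together, and their part in the Cspg4 value was not tested.

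Set against Myh11 within the same library, a measure that does not depend on library scaling, Rgs5 was lower in every NPY-tet mouse than in every wild-type mouse. Of all other genes tested, 20.4% lay below in the same way, and Rgs5 itself had a log2 fold change of -0.0027 beside 0.38 for Myh11. The log2 ratio was -0.75, -0.69, -0.47, -0.82 and -0.75 in the wild-type and -1.33, -0.86 and -1.09 in the NPY-tet mice. The difference of -0.40 had an exact two-sided permutation p of 0.0179, the smallest that 56 splits can give, and 0.161 after adjustment over the 9 ratios. It did not pass, and with 9 ratios this design could not have reached 0.05 for a single ratio. Wild-type and NPY-tet mice overlapped in the other 8 ratios, with differences from -1.31 for Lmod1 to 0.03 for Mylk (adjusted p 0.241 to 0.857, exact permutation).

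**Figure D4:**
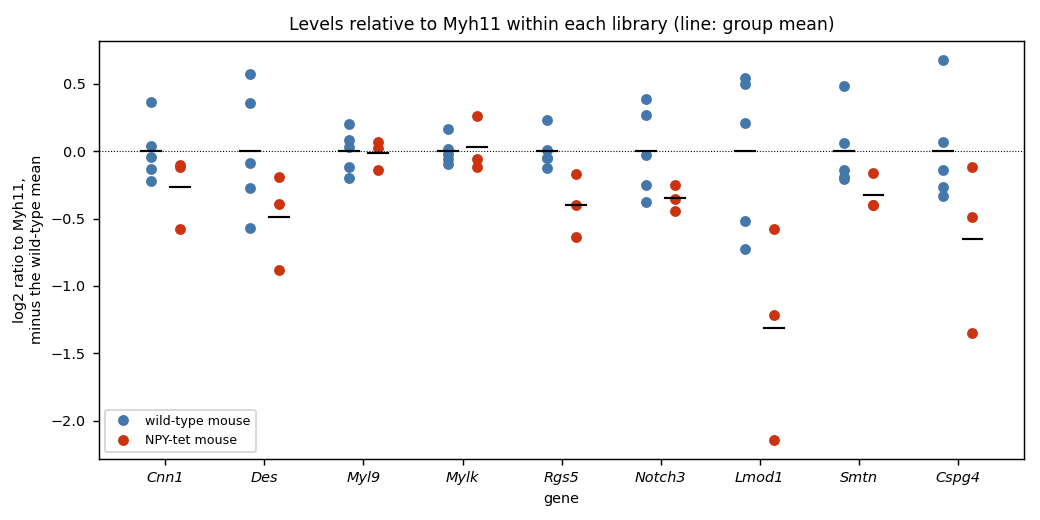
Log2 ratio of each of the other 9 genes to Myh11 within a library, minus the wild-type mean of that ratio (vertical axis), by gene (horizontal axis), 1 point per mouse and lines at the group means. The group means of Myl9 and Mylk lie near 0, Rgs5 lies lower in all 3 NPY-tet mice, as do 20.4% of all other genes, and Lmod1 spreads most.

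Levels of different genes can be compared only per length, for which the deposited FPKM (fragments scaled to gene length and library size, per the file's gene length) were used. Averaged over the 8 libraries Des led with 614 ± 165 FPKM, followed by Myl9 with 38.1 ± 6.49 FPKM, and both were above the next gene in 8 of 8 libraries. Smtn (19.98 ± 3.16 FPKM) and Notch3 (18.3 ± 1.93 FPKM) came next and overlapped. Below them on average Lmod1 (9.59 ± 4.39 FPKM), Myh11 (8.07 ± 1.36 FPKM) and Rgs5 (7.51 ± 1.33 FPKM) had overlapping ranges. So did Cspg4 (4.60 ± 1.22 FPKM) and Mylk (4.44 ± 0.817 FPKM). Ranges also overlapped between Notch3 and Lmod1 and between Rgs5 and Cspg4, with the first gene above in 7 of 8 libraries in each pair. Cnn1 was lowest with 2.58 ± 0.413 FPKM, below Mylk in 8 of 8 libraries. The order depends on the gene lengths in the file, which hold all annotated exons of a gene and not the isoform that a tissue uses. Counts behind these levels were 195 to 331 per library for Cnn1, 468 to 2041 for Lmod1 and at least 883 for each of the other genes. Genes on the other strand overlap the spans of Des, Mylk, Notch3, Lmod1 and Smtn. They had at most 170 counts in any library, fewer than the counts of the gene they overlap.

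By likeness over the 8 libraries, the genes closest to the mean log2 CPM of Myh11, Cnn1, Lmod1 and Smtn among 13761 genes were Klhdc10 (r = 0.97), Crip3 (r = 0.96), Pde4a, a cAMP phosphodiesterase (r = 0.96), Itgb1bp2, the muscle protein melusin (r = 0.95), and Dok5 (r = 0.95). The genes closest to Rgs5 were Dck, deoxycytidine kinase (r = 0.99), Spa17 (r = 0.95), Mrps22 (r = 0.94), Padi2 (r = 0.93) and Angptl1 (r = 0.93). These are descriptions over 8 points that share library preparation and genotype groups, with no test. Myh11, Cnn1, Lmod1 and Smtn did not move together, with pairwise r from -0.42 (Myh11 with Lmod1) to 0.72 (Cnn1 with Smtn). Lmod1, which varied with the skeletal muscle score, spread most, so their mean does not stand for a shared pattern.

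Among the 20 other contractile genes 19 were tested, of which 9 were fitted higher, 10 lower and 0 passed. The list median was -0.07 (log2), and -0.29 and 0.49 in the rRNA-rich and rRNA-poor libraries. The smallest p belonged to Aoc3, an amine oxidase of vascular smooth muscle and adipocytes, with 472 ± 76.3 CPM for the wild-type and 266 ± 160.3 CPM for the NPY-tet mice (adjusted p = 0.795 by edgeR). White adipocyte markers stood lower beside it, with 10 of 10 fitted lower, a median of -0.58 (-1.15 without NPY-tet replicate 3), a summed level of 5356 to 8834 CPM in the wild-type and 3396 to 7461 CPM in the NPY-tet mice and none at 0 counts, and their part in the Aoc3 value was not tested. The tropomyosin genes Tpm1 and Tpm2, which skeletal muscle shares, stood at 3399.7 ± 1069 and 2278 ± 886 CPM and at 3729 ± 1228 and 2606 ± 698 CPM. The integrin chain gene Itga8 stood at 4.27 ± 0.818 and 5.56 ± 1.25 CPM, with overlap.

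Of the 12 other pericyte genes 11 were fitted lower and 1 higher, 0 passed, and the median was -0.19 (-0.20 for rRNA-rich and -0.35 for rRNA-poor libraries). Without NPY-tet replicate 2 it was -0.064, and without wild-type replicate 3 it was -0.12. Cox4i2, a cytochrome oxidase subunit, stood at 2.20 ± 0.757 and 1.28 ± 0.197 CPM, Mcam, a cell adhesion molecule of mural and endothelial cells, at 108 ± 18.6 and 87.2 ± 13.5 CPM, and Anpep, an aminopeptidase, at 90.9 ± 7.06 CPM in NPY-tet against 109 ± 19.99 CPM in wild-type skin. Higd1b was the member fitted higher, at 0.563 ± 0.348 and 1.13 ± 0.375 CPM. Blood endothelium stood near by: of its 15 markers 4 were fitted higher and 11 lower, with a median of -0.16 (0.03 for rRNA-rich and -0.37 for rRNA-poor libraries, and -0.0043 without NPY-tet replicate 2) and 0 passed. The cadherin gene Cdh5 was at 69.1 ± 10.5 and 52.8 ± 11.7 CPM (adjusted p = 0.795 by edgeR). The summed endothelial level was 481 to 677 CPM in the wild-type and 396 to 592 CPM in the NPY-tet mice, with no marker at 0 counts. With the endothelial score as a covariate the log2 fold changes of Myh11, Myl9 and Mylk were 0.37, 0.36 and 0.43. The part of vessel content in the mural cell values was not tested, either by comparing the lists or by this covariate.

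Among 11 tested transcription factor genes of the contractile programme 5 were fitted higher and 6 lower, with a median of -0.02. Srf stood at 96.7 ± 11.9 and 83.1 ± 10.4 CPM, and the others of smallest p, Tead4, Klf4 and Mef2c, had adjusted p-values of 0.813 to 0.862 by edgeR. Of 13 relatives of the motor proteins, calponin, leiomodin and smoothelin, 8 were fitted higher and 5 lower, with a median of 0.05. Myl12b, a light chain gene close in sequence to Myl12a and Myl9, was above the wild-type range in every NPY-tet mouse. Its group means were 2.43 ± 0.747 (wild-type) and 3.93 ± 0.506 CPM (NPY-tet), with an adjusted p of 0.795 by edgeR. Only this 1 of the 13 had groups without overlap, and 1.81% of all genes tested had NPY-tet above in this way. The span of Myl12b overlaps Gm49909, a protein-coding gene on the same strand with 0 to 4 counts per library. The part of this overlap in the Myl12b values was not tested. How reads that fit several of these light chain genes were assigned is not given in the sources used here, so single values within this family are uncertain.

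The receptors through which constrictors act gave no call either. Of 22 receptor genes 19 were tested, 7 were fitted higher and 12 lower, and the median was -0.10. Npy1r, the Y1 receptor gene, stood at 5.43 ± 1.10 and 4.61 ± 1.34 CPM, with overlap. Npy2r and Npy5r had 0 counts in all 8 libraries, which allows at most 3 counts per library or 0.0600 to 0.101 CPM, for counting error only. Adra2a, an alpha-2 adrenergic receptor gene, stood at 5.06 ± 1.65 and 2.80 ± 0.852 CPM and Avpr1a, the vasopressin receptor gene of vessels, at 15.9 ± 1.68 and 21.3 ± 4.49 CPM (adjusted p = 0.791 by edgeR for both). In the Notch and PDGF-B list, signals that recruit and maintain mural cells, 9 of 13 genes were fitted higher and 4 lower, with a median of 0.14 and 0 past the threshold. The Notch ligand genes Dll1 (24.1 ± 1.80 and 31.9 ± 6.31 CPM) and Jag1 (63.0 ± 8.98 and 80.6 ± 12.5 CPM) were higher on average with overlap. Pdgfb, the endothelial signal to pericytes, stood at 46.8 ± 6.43 and 37.5 ± 9.27 CPM. The epithelium of skin also expresses Notch ligands, and its 8 basal keratinocyte markers were fitted 6 higher and 2 lower, with a median of 0.16, no marker at 0 counts and a summed level of 9148 to 14045 CPM in the wild-type and 9284 to 12676 CPM in the NPY-tet mice. Their part in the ligand values was not tested.

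**Figure D5:**
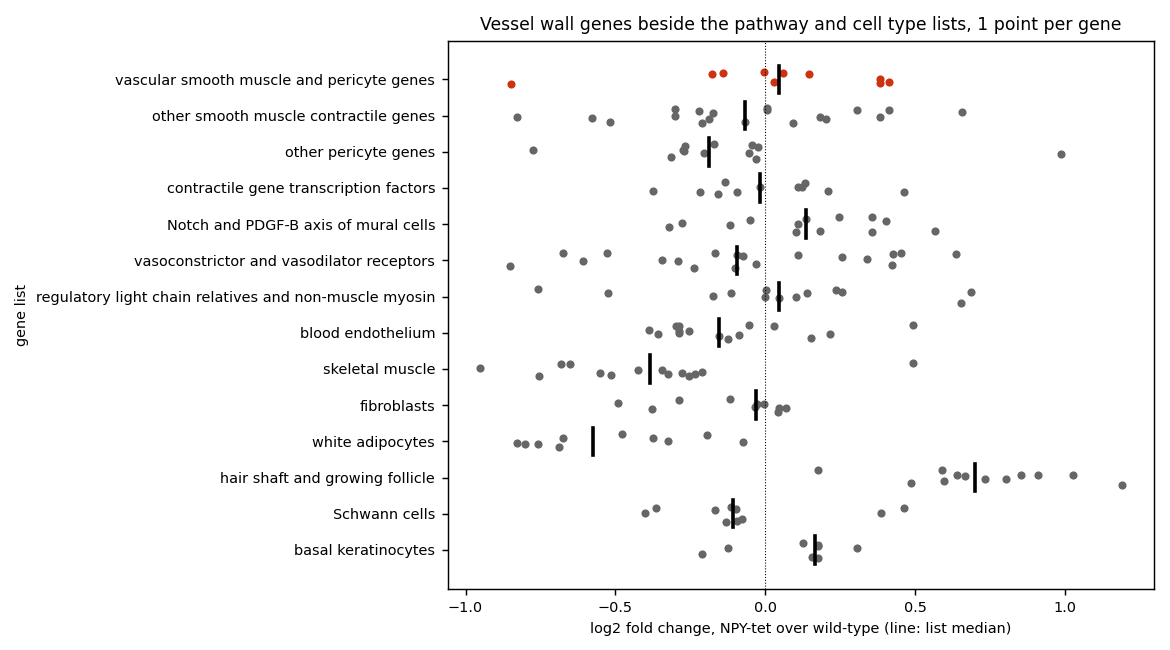
Log2 fold change of NPY-tet over wild-type (horizontal axis) for each tested gene (points) of the 10 vessel wall genes (red) and of the pathway and cell type lists (grey), with list medians (black lines). The vessel wall genes centre at 0.04 and range from -0.85 for Lmod1 to 0.41 for Mylk, while the list medians lie between -0.58 for white adipocytes and 0.70 for hair shaft genes.

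Hair shaft and Schwann cell markers were listed beside the vessel genes. The 12 hair shaft genes were all fitted higher (median 0.70, 0 passed), but single libraries turn or set this value. The median was -0.75 without NPY-tet replicate 2 and 6.20 by limma-voom, 5.61 with wild-type replicate 5 left out, -0.32 among rRNA-rich and 8.79 among rRNA-poor libraries. These genes had a summed level of 4.46 to 1225 CPM in the wild-type and 72.5 to 947 CPM in the NPY-tet mice. Of 10 Schwann cell genes 2 were fitted higher and 8 lower, with a median of -0.11 (0.046 without NPY-tet replicate 3) and 0 past the threshold.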

How the data were processed

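RNA of whole skin was sequenced as non-directional poly-A libraries, per the labels' protocols. The authors deposited whole-number counts per Ensembl gene, 1 column per mouse. Judged from its values, the deposited FPKM is the count over gene length and over 1 library-wide scale factor. Per the submitters' processing notes, build mm39 and the tools featureCounts 1.5.0-p3, HISAT2 2.0.5, CASAVA and DESeq2 1.20.0 were used, with no roles given; the handling of reads shared by genes is not given in the sources used here. Library names in the descriptions carry mouse numbers 1 higher than the titles for samples 3 to 8, with the same genotype, so the mouse behind a replicate number is uncertain.

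Counts were compared with edgeR 4.0.16 (R 4.3.3): filterByExpr, TMM factors, a robust quasi-likelihood fit on genotype alone, and Benjamini-Hochberg adjustment over 18495 genes at 0.05. SE was derived from the log2 fold change and its F statistic. Log2 CPM for scores use a prior count of 2. Ratios to Myh11 added 0.5 to the counts. Alternatives were other size factors and filters, DESeq2 1.42.0, limma 3.58.1 (voom, and log2 FPKM), a replicate block, the ribosomal RNA sets (boundary 1% of counts), muscle and endothelium scores as covariates, gene sets left out, and each library left out. The counts of 31370433 to 47495565 per library set the counting error. The procedures were tested on simulated data.

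The members and lists were chosen with earlier results of these data known. Named were Npy, all 10 members, up to 4 genes per list with the smallest p or past the threshold, of which the text gives examples, and the 5 genes most like the contractile mean and Rgs5, without predicted genes, Rik clones and pseudogenes. Npy1r, Npy2r, Npy5r, Tnnc2, Acta2 and Tagln were named after their values were seen. The result of 1 further gene list is not reported here.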

Additional observations from a re-analysis of the deposited data

Results flagged for a closer look

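In 91 sets of wild-type values tested for a sample far from the others, 8 had such a sample, and chance gives about 1 in 20. The sets are not independent. Several of the 8 are hair genes of the same mouse that also enter the summed hair shaft list. Their number can therefore not be held against that rate. None of the 8 was among the 10 vessel wall genes. In wild-type replicate 5 the hair genes stood apart: Krt33b at 83.3 CPM (others 0 to 1.30), Krt35 at 178 CPM (0.0506 to 8.50), Msx2 at 27.6 CPM (2.46 to 5.07), Hoxc13 at 41.2 CPM (1.42 to 4.00) and the summed hair shaft list at 1225 CPM (4.46 to 38.9). The same mouse had the highest wild-type values of Itga8, 5.68 CPM (3.65 to 4.19), and of Npy, 0.502 CPM (0.159 to 0.180). In wild-type replicate 3 the summed transcription factors of the contractile programme were at 1010 CPM (867 to 896).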

How the results depend on the processing

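Myh11, Myl9 and Mylk were higher in NPY-tet skin in each of the 24 alternatives and passed in none. The alternatives reuse the same libraries, in which these genes had no overlap between the groups. Their constant sign is therefore no independent support. The number of the 10 genes past the threshold was 0 in all but the rRNA-rich libraries alone, where it was 1 (Lmod1, -2.07). Over all genes the count was 1 in the main comparison, 21 with no filter on low counts, 68 by DESeq2, 3 by limma-voom, 2 with either FPKM pseudocount (1 or 0.1), 2 with the replicate block, 11 with the ribosomal RNA set as a factor, 332 among rRNA-rich and 227 among rRNA-poor libraries alone, and 1 to 8 with a library left out, the 8 without NPY-tet replicate 3. In the replicate block check, libraries of the same number deviated from their group means with correlations of -0.04, -0.11 and 0.30. No label says that the numbers pair mice, and these correlations, given without a test, cannot settle it. The median of the 10 genes, 0.04, was 0.14 by limma-voom, -0.13 and 0.37 in the rRNA-rich and rRNA-poor libraries, 0.16 with the skeletal muscle covariate, -0.016 with the endothelium covariate and 0.010 to 0.15 with a library left out.

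The other 7 genes changed sign in at least 1 alternative, and none passed where it did. Rgs5 was 0.0090 with upper-quartile factors, 0.0071 with at least 1 CPM in 3 libraries, 0.13 by limma-voom, 0.37 in the rRNA-poor libraries, 0.014 without ribosomal RNA genes, 0.17 with the skeletal muscle covariate, 0.0031 without muscle and hair genes and -0.18 to 0.16 with a library left out. Des was 0.17 with the ribosomal RNA set as a factor, 0.47 in the rRNA-poor libraries, 0.13 with the skeletal muscle covariate and -0.27 to 0.047 with a library left out. Notch3 was -0.058 with that factor, -0.014 and -0.10 for rRNA-rich and rRNA-poor libraries, -0.020 with the skeletal muscle covariate and -0.041 to 0.087 with a library left out. Cnn1 and Smtn were -0.29 and -0.18 in the rRNA-rich libraries, and Smtn was -0.034 with the endothelium covariate and -0.077 to 0.15 with a library left out. In the rRNA-poor libraries Lmod1 was 0.37 and Cspg4 0.16, and Cspg4 was -0.45 to 0.13 with a library left out. The differences relative to Myh11 ran from -0.064 to 0.047 for Myl9 and from -0.087 to 0.10 for Mylk with a library left out. The cause was not tested. List medians near 0 turned with a library left out. Contractile genes were at 0.025 (without wild-type replicate 3) and their transcription factors at 0.032 (without wild-type replicate 4). The relatives of the motor proteins, calponin, leiomodin and smoothelin were at -0.037 (without wild-type replicate 2). Fibroblasts were at 0.14 (without NPY-tet replicate 1). Notch and PDGF-B genes were at 0.23 and receptors at -0.17 without NPY-tet replicate 3, and basal keratinocytes at 0.090 without wild-type replicate 3.

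Without the 2 farthest libraries some correlations changed sign: Myh11 with the skeletal muscle score (0.10), and with the endothelium score Myh11 (0.40), Des (-0.56), Myl9 (0.34), Mylk (0.67), Notch3 (0.043) and Lmod1 (-0.74). With 5 and 3 mice, the 1.30-fold difference of Myh11 was not resolved after adjustment over all genes.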
